A study of Mus musculus with 12 samples.

Results

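The data described here are a pair of H3K79me2 peak lists from mouse melanoma cells, 1 from cells with intact KMT2D (WT) and 1 from KMT2D mutant cells. They were taken by sample title and hold 26353 WT and 22103 mutant peaks, 48456 of the 173601 peaks in the 10 lists of the series. The series has 12 samples, and each genotype has 1 H3K79me2 library, made by chromatin immunoprecipitation and sequencing (ChIP-seq). Cells of both genotypes came from ear tumours of iBIP mice on a mixed FVB and B6 background, and both therefore carry the same engineered alleles. These are Tyr-CreERT2 (a Cre recombinase switched on by 4-OHT), the conditional alleles PTENL/L and INK/ARFL/L, and Rosa26-rtta with TetO-BRAFV600E, which expresses the oncogene under doxycycline. Tumours were raised with doxycycline and 1 uM of 4-OHT on the ears. The WT cells are from iBIP;KMT2D+/+ mice and the mutant cells from iBIP;KMT2DL/L mice. The Cre recombinase is driven by the tyrosinase promoter, which is active in melanocytes, so the conditional alleles are open to recombination in that lineage. The labels do not say how many tumours or animals each cell population came from, nor their age. A list of positions for this mark checks neither the loss of KMT2D nor the melanocyte identity of the cells, and both are taken from the labels.

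H3K79me2 is dimethylation of lysine 79 of histone H3, placed by the methyltransferase DOT1L. It lies over transcribed genes, most densely in the part of the gene body that follows the promoter, and strongly transcribed genes tend to carry long unbroken stretches of it. KMT2D acts on another residue, as a methyltransferase that monomethylates H3K4 at enhancers. The question was how the H3K79me2 territory of the cells differs when KMT2D is mutant. With 1 library per genotype there was no replicate check, no test was made, and read depth is unknown. Ranges in parentheses after a share are its exact (Clopper-Pearson) 95% interval. Such an interval holds for counting error alone and treats peaks as independent, which neighbours in 1 gene are not. A peak that is absent from a list did not pass the authors' threshold, which is not evidence that the mark was absent. All values below are for the 19 autosomes, with 25869 WT and 21756 mutant peaks, and coordinates are on mm9, counted from 1.

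The mutant H3K79me2 territory lay mostly inside the WT territory and was smaller. WT peaks covered 90.3 Mb and mutant peaks 74.5 Mb, a mutant over WT ratio of 0.825. The lists had 65.9 Mb in common, which was 88.4% of the mutant and 72.9% of the WT covered length. Of the WT peaks, 36.7% (95% interval 36.1 to 37.3, 9494 of 25869) had no overlapping mutant peak, while 15.2% (14.8 to 15.7, 3314 of 21756) of the mutant peaks had no overlapping WT peak. These peaks are called unshared below, and 2 peaks are shared where they overlap by at least 1 bp. Between lists of equal length, the unshared share was 30.1% of WT and 19.5% of mutant peaks. Both shares depended on the definition, with 52.1% of WT and 25.5% of mutant peaks unshared when 50% of the peak had to be covered. They were 30.3 and 9.79% when a peak of the other list within 1000 bp was enough.

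The bases marked in WT cells alone were spread over 3 kinds of place. Of these 24.5 Mb, 8.58 Mb (35.1%) belonged to unshared peaks, 10.7 Mb (43.7%) lay at the ends of shared WT peaks beyond the reach of the mutant peaks, and 5.18 Mb (21.2%) lay in gaps between mutant peaks within 1 WT peak. The 8.62 Mb marked in mutant cells alone divided in much the same way, with 26.7% in unshared peaks, 48.5% at ends and 24.8% in gaps. In both lists, most of the territory that the other list did not reach thus adjoined shared H3K79me2.

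Peaks that met exactly 1 peak of the other list, which in turn met no other, formed 10600 pairs. The median length in these pairs was 2153 bp for the WT and 1638 bp for the mutant peak, and the latter was the shorter one in 66.4% of them. Its length was 0.897 times that of its WT partner at the median, with quartiles of 0.591 and 1.08. The mutant peak lay wholly inside the WT peak in 39.9% of pairs, and the WT peak wholly inside the mutant one in 13.8%. Across these pairs the fold enrichments of the 2 lists ranked alike with a Spearman rho of 0.59 and the lengths with a rho of 0.76, which describes peaks of the same 2 libraries and not replicates.

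Outside these pairs, stretches of H3K79me2 were divided differently in the 2 lists, more often with the single long peak on the WT side. There were 2325 WT peaks (8.99%) that each met several mutant peaks which met no other WT peak. They had a median length of 7436 bp and made up 27.8% of the WT covered length (25.1 Mb). The reverse, a mutant peak that met several WT peaks, was found for 4.59% of the mutant peaks, with a median length of 5819 bp and 12.1% of the mutant covered length (9.03 Mb). Of all mutant peaks 28.6%, but of all WT peaks 10.8%, met a single peak of the other list that itself met several. An overlap of 1 bp was enough for this, and which of the peaks was longer was not checked.

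The smaller mutant territory was seen on every autosome, to a similar degree. The ratio of covered length ran from 0.792 on chromosome 18 to 0.868 on chromosome 12, with a median of 0.814 and no autosome at 1 or above. Chromosome 2 held the most H3K79me2, 7.74 Mb of WT and 6.47 Mb of mutant peaks. Chromosome 19 held the least, at 2.99 and 2.43 Mb. The 2 chromosomes took 8.57% and 3.31% of the WT and 8.69% and 3.27% of the mutant covered length, so the share of the list on these chromosomes was nearly the same in both genotypes. Chromosome 11, the next in H3K79me2 after chromosome 2, had 7.16 Mb of WT and 6.09 Mb of mutant peaks.

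**Figure D1:**
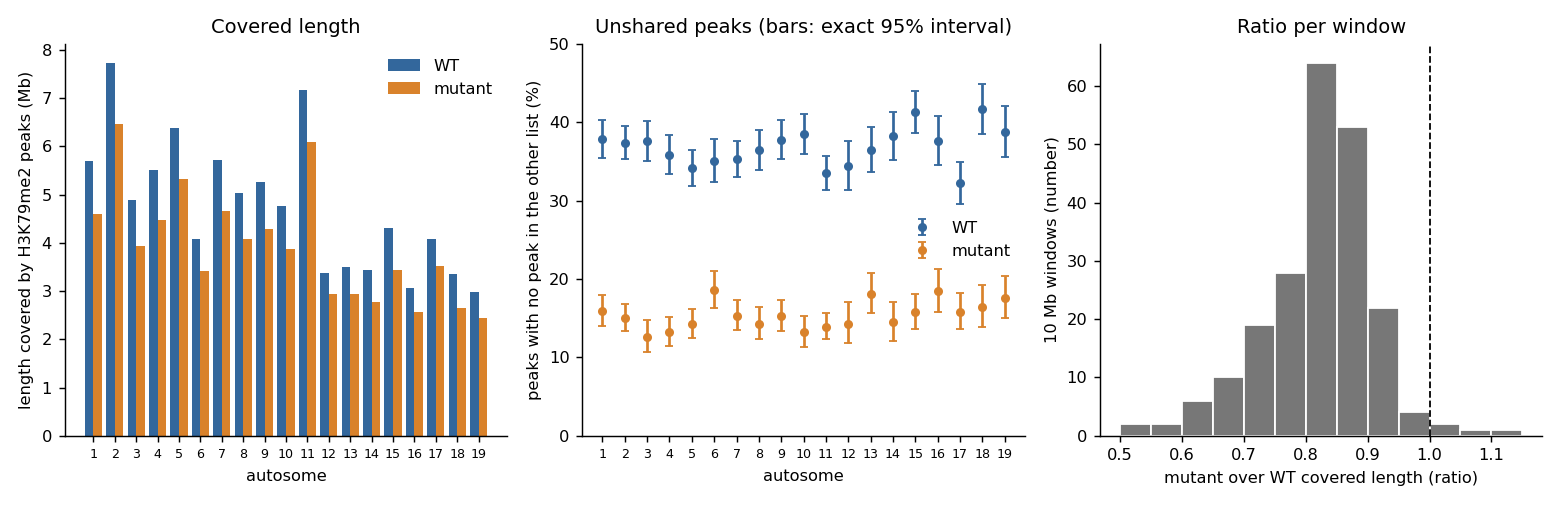
H3K79me2 on the 19 autosomes in WT (blue) and mutant (orange) cells, 1 library each: covered length in Mb (left), percent of peaks with no overlapping peak in the other list with exact 95% intervals (middle), and the number of 10 Mb windows by mutant over WT ratio of covered length, with a dashed line at 1 (right). The WT bar is the taller on all 19 autosomes, the WT shares of unshared peaks lie between 32.2 and 41.7% and the mutant shares between 12.6 and 18.6%.

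Unshared WT peaks were least frequent on chromosome 17, at 32.2% (29.54 to 34.99), and most frequent on chromosome 18, at 41.7% (38.5 to 44.9). These are the extremes of the 19 autosomes, picked out by their values, and their difference was not tested. Chromosome 15 was close to chromosome 18, with 41.3% (38.6 to 44.0), and had the lowest ratio of peak numbers, 0.791 (1051 mutant and 1328 WT peaks). Unshared mutant peaks were least frequent on chromosome 3, at 12.6% (10.7 to 14.7), and most frequent on chromosome 6, at 18.6% (16.3 to 21.0). The lowest autosomal WT share was above the highest autosomal mutant share.

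On a finer scale, 214 windows of 10 Mb had at least 200 kb of H3K79me2 over both lists together. Their ratio of covered length had a median of 0.833 with quartiles of 0.785 and 0.875, and it was below 1 in 210 of them. None of these windows had a ratio under 0.5 or over 2. The lowest ratio, 0.507, was at chr9:10000001-20000000, where WT peaks covered 140.3 kb and mutant peaks 71.2 kb, and where 43 of 66 WT peaks had no mutant peak. Next were chr8:40000001-50000000, with a ratio of 0.549 (479.9 and 263.6 kb) and 98 of 176 WT peaks unshared, and chr5:1-10000000, with 0.580 (148.8 and 86.3 kb).

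A few windows had more H3K79me2 in the mutant list. The highest ratio, 1.11, was at chr13:20000001-30000000, with 123.0 kb in WT and 136.5 kb in the mutant. At chr1:170000001-180000000 the ratio was 1.05 (217.6 and 228.9 kb), and 56 of the 116 mutant peaks there had no WT peak, against 36 of 91 WT peaks with no mutant peak. The first window of chromosome 3, chr3:1-10000000, had a ratio of 1.03 (103.0 and 105.7 kb) with fewer peaks in the mutant, 33 against 53.

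Unshared H3K79me2 peaks were mostly short. Among WT peaks under 500 bp, 73.7% (72.41 to 74.96) had no mutant peak, and the share was 62.3% at 500 to under 1000 bp, 37.5% at 1000 to under 2000 bp, 12.1% at 2000 to under 5000 bp and 1.63% (1.19 to 2.18) at 5000 to under 10000 bp. Of the 2039 WT peaks of 10000 bp or more, 6 had no mutant peak. Mutant peaks had the same order at lower levels, with 40.0% (38.4 to 41.6) unshared under 500 bp, 27.5% at 500 to under 1000 bp, 10.8% at 1000 to under 2000 bp and 1.80% at 2000 to under 5000 bp. None of the 2201 mutant peaks of 5000 to under 10000 bp was unshared, which has an exact interval of up to 0.167%, nor was any of the 1163 of 10000 to under 20000 bp or the 526 of 20000 bp or more. These low shares of long peaks held for an overlap of 1 bp. When 50% of the peak had to be covered, 37.3% of WT peaks of 2000 to under 5000 bp, 16.1% of those of 5000 to under 10000 bp and 5.06% of those of 10000 to under 20000 bp were unshared, and for mutant peaks the values were 10.8, 2.77 (61 of 2201) and 0.172%. With both lists held to a −log10 q of at least 5 they were 31.3, 12.7 and 2.65% for WT and 8.86, 1.46 and 0.0867% for mutant peaks. At 1000 to under 2000 bp the share was 59.99 and 58.5% of WT and 27.4 and 21.3% of mutant peaks in these settings. The longer classes kept the lower shares under either, over the 4 classes from 1000 bp to under 20000 bp. The share of length covered by the other list had the same order. It was 20.3% for WT peaks under 500 bp and 93.9% for those of 20000 bp or more, and 52.1 and 97.7% for mutant peaks. The 1 unshared WT peak of 20000 bp or more had 21855 bp and lay in a row of 12 unshared peaks at chr1:168950938-169007115, a region picked out after its values were seen.

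**Figure D2:**
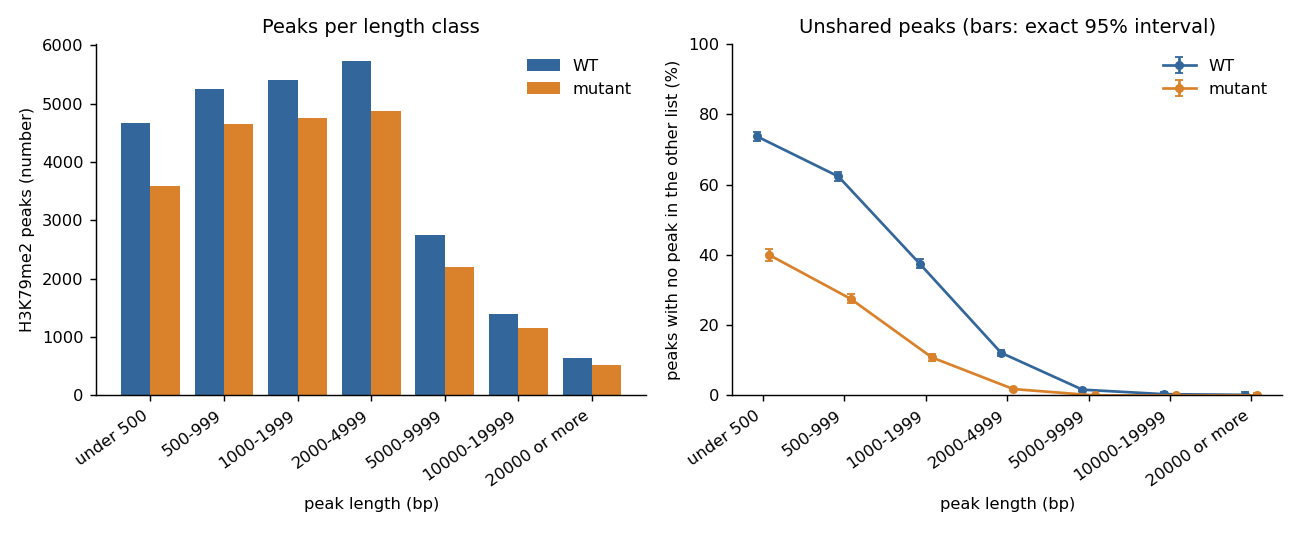
H3K79me2 peaks by length in bp, in WT (blue) and mutant (orange) cells: number of peaks per class (left) and percent of the class with no overlapping peak in the other list, with exact 95% intervals (right). WT has more peaks in all 7 classes, and the unshared share goes from 73.7% of WT and 40.0% of mutant peaks under 500 bp to below 2% of each from 5000 bp on, for an overlap of 1 bp (16.1% of WT peaks of 5000 to under 10000 bp when 50% of the peak had to be covered).

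The mutant list was shorter in all 7 length classes. The ratio of peak numbers was lowest for peaks under 500 bp, at 0.767 (3589 mutant and 4677 WT peaks), and highest at 500 to under 1000 bp, at 0.884 (4647 and 5254). Between these came 0.799 at 5000 to under 10000 bp (2201 and 2755), 0.829 at 10000 to under 20000 bp (1163 and 1403) and 0.827 at 20000 bp or more (526 and 636). Peaks under 500 bp made up 1088 of the 4113 peaks by which the WT list was longer, but only 2.20% of the difference in covered length. Peaks of 20000 bp or more made up 110 of those peaks and 26.6% of the difference in length, 4.21 of 15.8 Mb. Between class totals, the shortest class thus weighed more in the difference in number, and the longest in the difference in covered length. A WT peak divided in the mutant list counts there in shorter classes, so the 26.6% is not territory missing from the longest WT peaks. Mutant peaks covered 93.9% of the length of WT peaks of 20000 bp or more, and 60.2% at 2000 to under 5000 bp.

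Fold enrichment, which is the authors' ratio of ChIP signal over background for a peak, was lower in unshared than in shared peaks of the same list. The median was 4.41 for the 16375 shared and 3.95 for the 9494 unshared WT peaks, with quartiles of 4.04 to 4.94 and 3.75 to 4.20. In the mutant list the medians were 4.47 for the 18442 shared and 4.17 for the 3314 unshared peaks, with quartiles of 4.12 to 4.91 and 3.93 to 4.40. The quartile ranges overlapped in both lists. The highest fold of a shared peak was 9.619 in WT and 9.602 in the mutant, and that of an unshared peak 6.25 and 6.21.

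Each list was ranked by its own fold and cut into 10 groups of equal size, group 1 being the weakest. A mutant peak was present at 35.9% (34.02 to 37.75) of the WT peaks in group 1, at 56.6% in group 5 and at 98.8% (98.3 to 99.15) in group 10, where 32 of 2586 were unshared. In the mutant list the share was nearly level over groups 1 to 4, between 75.2 and 76.8%, and then climbed to 98.9% (98.4 to 99.3) in group 10. The lists therefore met in their strongest parts and differed in their weak ones, where the WT list had many more unshared peaks.

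**Figure D3:**
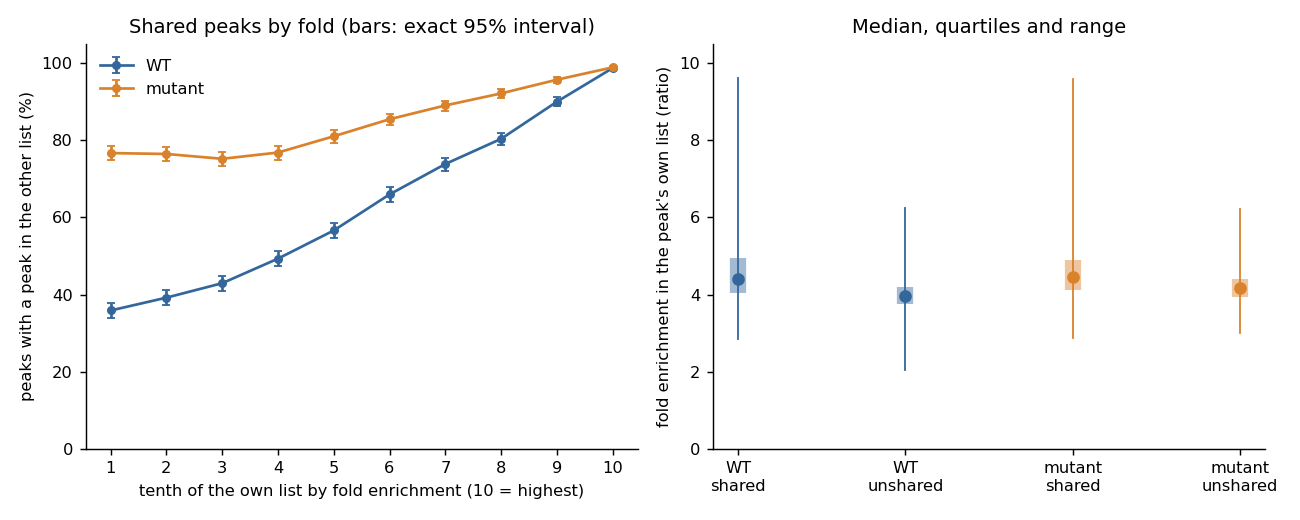
Percent of H3K79me2 peaks with an overlapping peak in the other list, by group of the peak's own list cut into 10 by fold enrichment, with exact 95% intervals (left), and fold enrichment of shared and unshared peaks, with point, thick bar and thin line for median, quartiles and full range (right); WT is blue and mutant orange. In WT the shared share goes from 35.9% in the lowest to 98.8% in the highest group, and unshared peaks reach a fold of 6.25 where shared ones reach 9.62.

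Fold and length were linked, since the median length was 651 bp in WT group 1 and 7834 bp in WT group 10, so shared and unshared peaks were also compared at like length. Under 500 bp the medians of shared and unshared peaks differed little, at 4.00 and 3.93 in WT and at 4.19 and 4.19 in the mutant. The difference was larger at 2000 to under 5000 bp, with 4.43 and 4.09 in WT and 4.57 and 4.29 in the mutant. For WT peaks of 5000 to under 10000 bp the medians were 4.77 for the 2710 shared and 4.30 for the 45 unshared ones. Among WT peaks of 2000 to under 5000 bp, cut into 5 groups by fold, 75.1% (72.5 to 77.6) of the weakest and 99.2% (98.5 to 99.6) of the strongest group had a mutant peak. Under 500 bp the order by fold was weaker. Of the WT peaks, 25% (22.2 to 27.9) were shared in the weakest, 23.2% (20.5 to 26.0) in the middle and 34.5% (31.5 to 37.7) in the strongest group. Mutant peaks had no steady order, with 63.9% (60.3 to 67.5) shared in the weakest, 55.7% (51.99 to 59.4) in the middle and 63.04% (59.4 to 66.6) in the strongest group.

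The strongest shared WT peaks of at least 2000 bp were at chr4:40792875-40800887 (fold 9.62), chr11:59026245-59042511 (9.28), chr14:41774959-41780031 (8.78) and chr9:100978511-100989322 (8.77). Single mutant peaks covered 97.7, 93.6, 96.8 and 100% of them. The peak on chromosome 4 was 8013 bp long in WT and lay in a mutant peak of 40668 bp that began at 40760039, so the stretches joined differently in the 2 lists. The regions on chromosomes 11 and 9 also led the mutant list, with folds of 9.602 and 8.94, followed by chr10:117257724-117283017 (8.88) and chr11:94169325-94183041 (8.71). All of these regions had H3K4me3, the mark of active promoters, within 2000 bp in both genotypes.

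The unshared peaks of at least 2000 bp with the highest fold were weaker. In WT they were at chr13:29041438-29044872 (fold 5.89), chr5:105857961-105861557 (5.40), chr15:55735900-55738734 (5.14) and chr9:31862813-31865021 (5.07). The region on chromosome 13 had no mutant H3K79me2 peak within 10000 bp, although H3K4me3 lay there in both genotypes, and the other 3 had between 1 and 5 mutant H3K79me2 peaks within that distance. In the mutant they were at chr6:113021103-113025513 (5.43), chr2:160914025-160916664 (4.90), chr19:21504590-21507094 (4.81) and chr18:77336293-77338331 (4.78). Each of these 4 had at least 1 WT H3K79me2 peak within 10000 bp.

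Unshared peaks often lay near H3K79me2 of the other genotype, and also near shared H3K79me2 of their own list. A mutant peak was found within 10000 bp of 69.7% (68.8 to 70.6) of the unshared WT peaks, and a WT peak within that distance of 85.3% (84.1 to 86.5) of the unshared mutant peaks. The 2876 unshared WT peaks farther away covered 2.64 Mb, had a median length of 671 bp and a median fold of 3.93. The nearer 6618 had 665 bp and 3.96, so distance to mutant H3K79me2 hardly separated them in length or strength. A shared peak of the same list was within 10000 bp of 63.4% (62.4 to 64.4) of the unshared WT peaks. For unshared mutant peaks this share was 70.9% (69.3 to 72.4). Peaks of a list were closely spaced, with 58.9% of WT and 56.1% of mutant gaps between neighbours under 5000 bp. How much nearness this spacing alone would give was not tested.

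H3K4me3 of the same genotype, used as a stand-in for promoters, was less frequent in unshared peaks. H3K4me3 overlapped 42.9% (42.1 to 43.7) of the shared and 11.4% (10.8 to 12.1) of the unshared WT peaks, and 37.9% (37.2 to 38.6) and 9.596% (8.61 to 10.7) in the mutant. Under 500 bp the WT shares were 10.4% (8.76 to 12.2) and 9.81% (8.83 to 10.8), with overlapping intervals, and the mutant shares 14.7% (13.2 to 16.2) and 9.89% (8.40 to 11.6), with intervals that did not overlap. At 2000 to under 5000 bp they were 46.1% (44.7 to 47.5) and 14.2% (11.7 to 17.0). At this length shared H3K79me2 peaks overlapped H3K4me3 more often than unshared ones in both genotypes, the mutant values being 44.6% (43.2 to 46.0) and 10.2% (4.78 to 18.5).

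Long stretches of H3K79me2 were found at the same places in both lists but were more often interrupted in the mutant list. A peak of at least 10000 bp is called a block here, and there were 2039 blocks in WT and 1689 in the mutant. Mutant peaks covered 90.04% of the length of the WT blocks, and WT peaks covered 96.8% of the length of the mutant blocks. Of the WT blocks, 50.2% (47.98 to 52.36) met 1 mutant peak, 28.5% (26.5 to 30.5) met 2, 12.1% met 3, 8.93% (7.72 to 10.2) met 4 or more and 6 blocks met none. In the reverse direction 73.8% (71.6 to 75.9) of the mutant blocks met 1 WT peak, 18.7% met 2, 5.27% met 3 and 2.25% (1.60 to 3.08) met 4 or more.

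Taking blocks met by 2 or more peaks as broken, 49.5% (47.3 to 51.7, 1010 of 2039) of the WT blocks were broken in the mutant and 26.2% (24.1 to 28.4, 443 of 1689) of the mutant blocks were broken in WT. The interruptions were small. The 1735 gaps inside WT blocks had a median of 1067 bp with quartiles of 901.5 and 1441 bp, and 87.4% were under 2000 bp. The 627 gaps inside mutant blocks had a median of 994 bp, and 94.9% were under 2000 bp. No 2 peaks of a list lay closer than 801 bp, so shorter interruptions cannot be seen. When pieces were joined across gaps of up to 2000 bp, the broken share was 8.73% (7.54 to 10.04) for WT blocks and 1.78% (1.20 to 2.53) for mutant blocks.

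**Figure D4:**
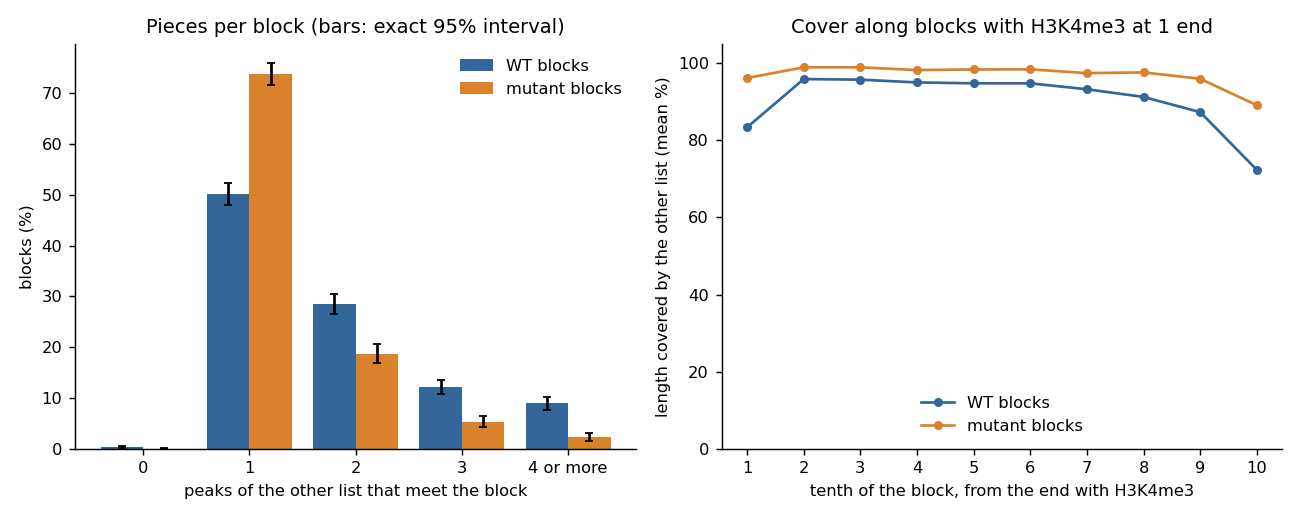
Blocks of at least 10000 bp of WT (blue) and mutant (orange) H3K79me2: percent of blocks by number of overlapping peaks of the other list, with exact 95% intervals (left), and mean percent of cover by the other list in 10 equal parts of the block, from the end with H3K4me3, for the 1492 WT and 1261 mutant blocks with H3K4me3 at 1 end (right). WT blocks meet a single mutant peak in 50.2% of cases and mutant blocks a single WT peak in 73.8%, and cover is lowest in the last part of both.

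Gaps were the larger part of what was uncovered. Of the 3.97 Mb of WT blocks without a mutant peak, 57.9% lay in gaps between mutant peaks, 40.05% at the ends of the blocks and 2.04% in the 6 blocks that met none. Of the 1.03 Mb of mutant blocks without a WT peak, 68.2% lay in gaps and 31.8% at ends. A single mutant peak covered at least 90% of the block in 901 WT blocks (44.2%), and a single WT peak did so in 1226 mutant blocks (72.6%). Full cover was found for 180 WT blocks (8.83%) and 691 mutant blocks (40.9%).

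Whole blocks were stronger than broken ones. The median fold was 5.68 for WT blocks met by 1 mutant peak, 5.23 for those met by 2, 4.91 for those met by 3 and 4.81 for those met by 4 or more. With the WT blocks cut into 4 groups by fold, 72.5% (68.5 to 76.4) of the weakest group were broken and mutant peaks covered 77.7% of its length. In the strongest group 26.7% (22.9 to 30.8) were broken, with 95.6% covered. Of the 75 WT blocks covered to less than 50%, 66 were in the weakest group. Mutant blocks had the same order, with 39.2% (34.6 to 44.1) broken in the weakest and 15.2% (11.9 to 18.95) in the strongest group.

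The broken share varied less with the length of a block than with its fold. It was 48.2% (45.03 to 51.44) for WT blocks of 10000 to under 15000 bp, 46.95% (42.2 to 51.7) at 15000 to under 20000 bp, 48.8% (43.6 to 54.0) at 20000 to under 30000 bp and 59.7% (53.5 to 65.7) at 30000 bp or more. The first 3 values lie within the intervals of one another. Cover went the other way, from 84.2% in the shortest to 95.5% in the longest of these classes. Per autosome, the broken share of WT blocks ran from 39.8% on chromosome 12 to 58.1% on chromosome 8. A mutant peak that was itself a block met 71.5% (69.5 to 73.5) of the WT blocks, and a WT block met 89.3% (87.8 to 90.8) of the mutant blocks.

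Blocks with an H3K4me3 peak of their own genotype at exactly 1 end (over it or within 2000 bp) were read from that end, as a stand-in for the start of the gene. There were 1492 such WT blocks, 73.2% of all, and 1261 such mutant blocks, 74.7%. Mean mutant cover of these WT blocks was 83.4% in the first of 10 equal parts, next to H3K4me3, 95.9% in part 2, 94.8% in part 5 and 72.3% in part 10. Mean cover was thus lower at both ends of the WT blocks than inside them, and lowest at the far end. Among the 1489 met by a mutant peak, the H3K4me3 end was uncovered in 74.1%, by a median of 206 bp where it was, and the far end in 56.7%, by a median of 484 bp. For mutant blocks, WT cover was 96.2% in part 1 and 89.1% in part 10, so the lower cover at the far end was seen in both directions. The H3K4me3 end was uncovered in 25.7% of the mutant blocks, by a median of 76 bp, and the far end in 29.9%, by a median of 297 bp. With both ends averaged over all blocks, cover was 76.15% in the end parts and 91.91% in the middle parts of WT blocks. For mutant blocks it was 91.76 and 97.78%. The ends of a block were set by its own list, and how much lower cover at ends this alone would give was not tested.

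The longest blocks were present in both genotypes. The longest WT peak, at chr8:125431301-125565803 (134503 bp, fold 6.98), was met by 2 mutant peaks that covered 99.2% of it. The next, at chr8:119780991-119910309 (129319 bp), was covered to 99.3% and matched the longest mutant peak, of 128545 bp. The block at chr3:136333399-136461342 (127944 bp) was met by 4 mutant peaks with 97.9% cover, and that at chr4:8617810-8729201 (111392 bp) by 5 with 96.1% cover. The block at chr5:119010821-119122298 (111478 bp) went the other way and lay in a single mutant peak of 122054 bp, which met 2 WT peaks. Mutant peaks of 112443 bp at chr14:120675124-120787566 and of 108542 bp at chr2:90312021-90420562 were each met by 2 WT peaks with 99.2 and 99.1% cover.

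The most broken WT block was at chr1:91352050-91398214 (46165 bp, fold 4.33), which met 12 mutant peaks of 346 to 6649 bp with 66.1% of its length covered. At chr2:52736299-52777805 (41507 bp, fold 4.90), 11 mutant peaks covered 65.6%. The other 3 of the most broken WT blocks met 8 mutant peaks each, at chr5:107088772-107125868, chr2:78710053-78738000 and chr7:82653232-82680339, with 77.7, 71.9 and 65.01% covered. These 5 blocks had folds between 4.33 and 4.98, all below the median of 5.33 over the WT blocks. H3K4me3 lay within 2000 bp in both genotypes at 3 of the 5 and in neither at the 2 others, on chromosome 2 near 52.7 Mb and on chromosome 7.

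The most broken mutant blocks met at most 7 WT peaks. They were at chr1:140036760-140071730 (34971 bp, 73.9% covered), chr13:95025115-95046958 (21844 bp, 38.7%), chr12:17735810-17753051 (17242 bp, 49.2%) and chr11:76130815-76146345 (15531 bp, 49.2%), with 7 WT peaks each, and at chr10:58998082-59026342 (28261 bp, 83.1%), with 5, the longest of the mutant blocks that met 5. Those on chromosomes 13, 12 and 11 were the 3 mutant blocks in the whole list that WT peaks covered to less than 50%. Each of these 3 is a stretch where the mutant list has 1 long peak and the WT list a row of short ones, of 273 to 2925 bp.

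**Figure D5:**
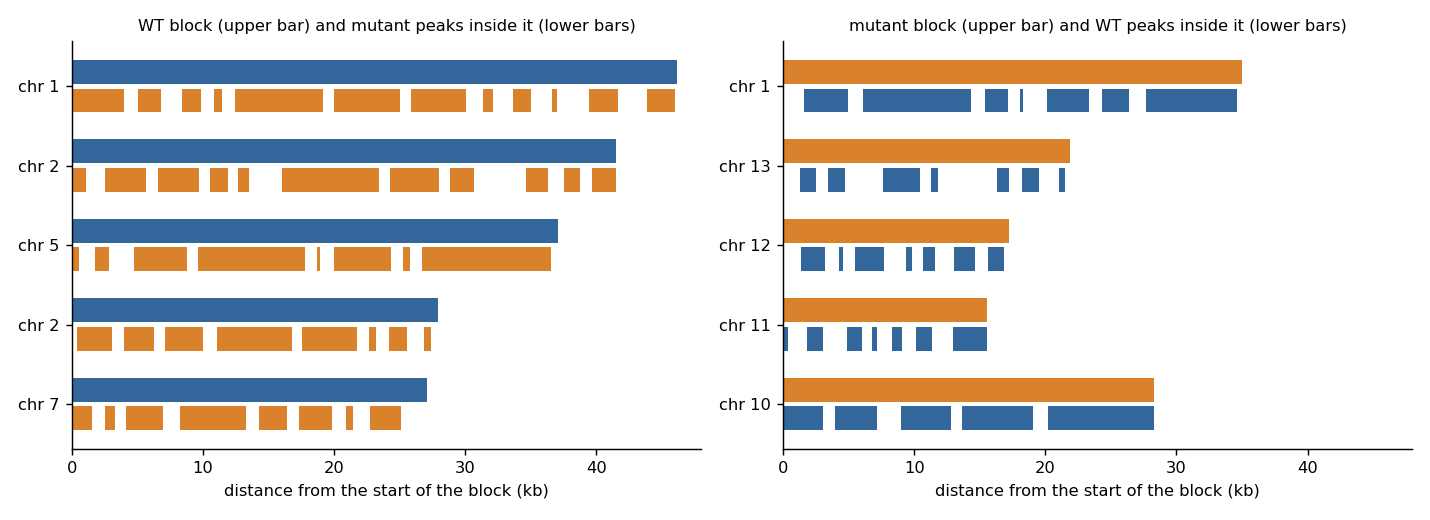
The 5 WT blocks (left, blue upper bars) that met the most mutant H3K79me2 peaks (orange lower bars), and the 5 mutant blocks (right, orange upper bars) that met the most WT peaks (blue lower bars), drawn to scale in kb from the start of the block. The WT blocks hold 8 to 12 mutant peaks and the mutant blocks 5 to 7 WT peaks, and the widest gap between pieces, 4486 bp, is in the mutant block on chromosome 13.

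Among WT blocks of at least 20000 bp, the lowest mutant cover above 0 was 22.5%, at chr15:56503358-56525969 (22612 bp), where 6 mutant peaks of at most 1763 bp lay. At chr13:73965147-73985706 (20560 bp, fold 5.43), 7 mutant peaks covered 37.9%, and this block was above the median fold of the WT blocks. At chr2:63907541-63935282 cover was 44.3%, at chr6:34664906-34689003 52.96%, and at chr5:151978268-152003511 53.5%. H3K4me3 was present in both genotypes within 2000 bp of 4 of these 5, all but that on chromosome 6. Among mutant blocks of this size the lowest WT cover was the 38.7% on chromosome 13 given above, followed by 63.02% at chr3:138450017-138474978, 72.1% at chr13:117792811-117813752, 72.2% at chr9:56241693-56265180 and 73.3% at chr4:149051907-149071948.

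Some unshared peaks came in rows. Runs of at least 5 neighbouring unshared peaks, each within 20000 bp of the next, numbered 214 in WT with 1550 peaks (16.3% of the unshared) and 30 in the mutant with 194 peaks (5.85%). The WT list also had the higher share of unshared peaks, 36.7% against 15.2% in the mutant list. No peak of the other list lay in the span of 138 WT and 13 mutant runs, and none within 10000 bp of 31 and 2. The longest WT run was at chr18:63399749-63541487, where 21 peaks of up to 6928 bp covered 27372 of 141739 bp, with folds of 3.63 to 4.97 and no mutant peak in the span. It had H3K4me3 in WT and none in the mutant within 2000 bp. The next runs were at chr19:28585187-28704632, with 23 peaks over 119446 bp, and at chr13:9385035-9494303, with 17 peaks over 109269 bp, each with 1 mutant peak in the gaps between them. Of the WT runs, 50 had WT H3K4me3 within 2000 bp, and 42 of these had it in both genotypes.

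The longest mutant run was at chr1:170198035-170284919, where 16 peaks covered 16586 of 86885 bp with no WT peak in the span. The next in length was at chr11:107200674-107256721, with 5 peaks covering 3284 bp and no WT peak in the span. After it came chr1:172415522-172468985, with 6 peaks covering 3211 bp and 1 WT peak in the gaps between them. The window chr1:170000001-180000000, which had a ratio above 1, held 5 of the 30 mutant runs with 44 of their 194 peaks, more than any other window. The window with the most WT runs was chr18:60000001-70000000, with 6 runs of 61 peaks, and chr8:40000001-50000000, with a ratio of 0.549, held 5 runs of 45 peaks. These windows were picked out after their values were seen.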

How the data were processed

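H3K79me2 ChIP-seq peak lists of WT and mutant cells were compared, 1 library each, grouped by sample title. Sonicated chromatin was amplified over 10 cycles of PCR, per the labels' protocols. The submitters' processing notes name mm9 as the build and Bowtie, MACS, MACS2 and deepTools as tools, whose versions and roles are not given in the sources used here. The columns the authors deposited for each peak hold a fold enrichment (a ratio), −log10 of the p-value and −log10 of the q-value. The lowest −log10 p was 5.01 in both lists. Over all autosomal peaks the median fold was 4.20 in WT and 4.40 in the mutant list, and the median −log10 q was 5.21 and 5.07. WT peaks thus had the lower median fold with the higher median −log10 q. Whether the 2 lists were called with equal sensitivity was not tested. Read depth is unknown, and its part in the differences in number, length and continuity of peaks was not tested. Apart from these medians, fold levels were compared only within a list, and between lists only their ranks over paired peaks were. The H3K4me3 lists, which the authors deposited with a MACS score, served only as promoter landmarks by position.

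Peaks were shared from 1 bp of overlap. Coordinates are mm9, counted from 1. Regions are given without genes or sequence because the gene table used here follows another build. Named regions follow a rule: the 5 longest peaks, the 5 most broken blocks (ties by length), the 5 blocks of at least 20000 bp with the lowest cover above 0, the 4 peaks of at least 2000 bp with the highest fold (shared and unshared apart), the 3 longest runs per list, and the 3 lowest and highest windows. The comparison, rule and classes were chosen with earlier results of these data known. Alternatives were a −log10 q of at least 3, lists of equal length (strongest by q), joining within 1000 bp, all chromosomes, 50% cover, sharing within 1000 bp, blocks of 5000 and 20000 bp, and pieces of at least 500 bp. A −log10 q of at least 5 and pieces joined across 2000 bp were chosen after seeing the data. Overlaps were computed with numpy 2.4.6 and pandas 2.3.3 under Python 3.11.15, intervals with scipy 1.17.1 and figures with matplotlib 3.10.9. On 3 simulated pairs of lists with known answers, the code found the shared peaks, broken blocks and covered length with an error of 0. The other steps were not simulated.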

Additional observations from a re-analysis of the deposited data

How the results depend on the processing

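Over all settings run, the WT list kept the higher share of unshared peaks (8 of 8 settings) and of broken blocks (10 of 10), and the covered length had a ratio below 1 on all 19 autosomes. These counts include the main setting and the −log10 q of at least 3, which gave the main values again. With lists of equal length the broken share of WT blocks was also unchanged, at 49.53%. That setting cut only the WT list and dropped no block, so it could not change this share. Unshared WT and mutant peaks were 30.06 and 19.51% with lists of equal length, 52.12 and 25.53% when 50% of the peak had to be covered, and 30.32 and 9.79% when peaks within 1000 bp counted as shared. With a −log10 q of at least 5, 38.31% of WT peaks were unshared. Broken WT and mutant blocks were 44.12 and 22.23% with peaks joined across 1000 bp, 45.32 and 23.33% with pieces of at least 500 bp, 43.05 and 23.83% for blocks of at least 5000 bp, 36.14 and 22.28% with a −log10 q of at least 5, and 8.73 and 1.776% with pieces joined across 2000 bp. For blocks of at least 20000 bp 53.3% of the WT blocks were broken. The ratio of covered length was 0.854 with lists of equal length and 0.8006 with a −log10 q of at least 5. Blocks numbered 4794 in WT and 3890 in the mutant at 5000 bp, and 636 and 526 at 20000 bp. A −log10 q of at least 3 removed no peak. Of the 193 values per length class and autosome under other settings, 78 moved beyond their interval, or the SD over autosomes. They include those for a −log10 q of at least 3, which repeat the main values. A reversal was defined only for the ratios per autosome, as a change to the other side of 1, and none of these reversed. The cause of these shifts was not tested. Read depth is unknown, which limits every value above. No paired analysis was possible because each genotype has 1 library.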

Other observations

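Chromosome X was left out of the comparison above and had a lower ratio than any autosome. It held 483 WT and 346 mutant H3K79me2 peaks, a ratio of 0.716, where the autosomes ran from 0.791 to 0.911. The covered length on chromosome X was 0.9695 Mb for WT and 0.7115 Mb for mutant peaks, a ratio of 0.734. Of its WT peaks 44.1% (exact 95% interval 39.6 to 48.7) had no mutant peak, an interval that holds the value of chromosome 18, and of its mutant peaks 17.1% (13.2 to 21.4) had no WT peak. Blocks of at least 10000 bp on chromosome X numbered 12 in WT and 9 in the mutant. Each list held 1 peak on chromosome Y, and the sex of the animals was not taken into account. Whether chromosome X differs from the autosomes beyond the spread between libraries was not tested, since each genotype has 1 library.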
